A study of Mus musculus with 8 samples.

Results

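The genes described here are 9 protein-coding genes of the mouse mitochondrial genome, namely mt-Co1, mt-Co2, mt-Co3, mt-Nd1, mt-Nd2, mt-Nd4, mt-Nd5, mt-Cytb and mt-Atp6, out of 32502 genes listed in any of the 8 count tables. They were selected on these data, since mt-Co1 had been seen to be lower in glia of tumour-bearing mice, so every difference between tumour-bearing and naive glia given below is a description, and nothing is read from a test of it. All 8 tables listed mt-Co1, mt-Nd1, mt-Nd2, mt-Nd4, mt-Nd5 and mt-Cytb, and these 6 genes passed the filter of at least 30 cells. The other 3 were almost absent from the counts, with 10 unique molecular identifiers (UMIs, 1 per captured RNA molecule) for mt-Co3, 6 for mt-Atp6 and 1 for mt-Co2 over all 8 tables together. Summed levels below are therefore sums over the 6 counted genes.

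Single brain cells were profiled by Drop-seq, which captures polyadenylated RNA on beads and counts UMIs from the 3′ end of each transcript. The study compared wild-type (WT) C57BL/6 mice (C57BL/6N in the study's methods), Irg1/Acod1 +/+, with knock-out (KO) littermates, Irg1/Acod1 -/-, in which a cassette inserted by gene targeting disrupts Acod1, the enzyme that makes itaconate from a citric acid cycle intermediate. Each genotype gave 1 library from naive brain and 1 library each from tumours at the early (5 to 10 mm3), intermediate (20 to 25 mm3) and late (30 to 35 mm3) stage after 500 GL261 mouse glioma cells had been implanted, so that 2 naive and 6 tumour-bearing libraries were available. Each tumour-bearing library came from 1 mouse and the label of each naive library names 2 mice. GL261 is 1 cultured line, no age is given in the labels, and sex differed between the genotypes at the early and intermediate stages. Only the tumour core was dissected from tumour-bearing brains, whereas naive brains were not restricted in this way, and myelin was removed from all suspensions. Region and tumour therefore cannot be told apart in any comparison of tumour-bearing with naive cells.

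The tables held between 2885345 and 9950713 UMIs for 3000 barcodes each. Filtering left 5698 cells, from 454 to 1000 per library, with a median of between 2607.5 and 5642.5 UMIs per cell, and pairs of libraries shared no more than 2 of the kept barcodes. Cells were clustered without the mitochondrial genes and assigned by marker lists to 14 classes, each of which carried its own markers (the 9 astrocyte markers summed to 34470 CPM or more in astrocytes of every library). The naive libraries held 3 and 2 cells in the tumour cell class, which detected none of the 7 tumour markers, and no macrophage-like cell. These cells were left out of all comparisons, as was any sum of fewer than 5 cells.

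The mitochondrial genome is a small circle kept in many copies per cell, and its protein-coding genes all encode subunits of oxidative phosphorylation. The mt-Nd genes encode subunits of complex I, mt-Cytb the cytochrome b of complex III, the mt-Co genes the catalytic core of complex IV and mt-Atp6 a membrane subunit of ATP synthase. The heavy and light strands are transcribed as long precursors from which the tRNAs are cut out, and the released mRNAs and rRNAs receive short poly(A) tails, which lets an oligo-dT bead capture them. Complexes I, III and IV and ATP synthase also need subunits made from nuclear genes, and complex II has no mitochondrially encoded subunit. The fraction of mitochondrial transcripts per cell is in common use as a quality measure in single-cell work, so measures of cell and RNA quality are given beside the levels.

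The 9 members lie on the same strand of the mitochondrial genome (GRCm38, GENCODE release M21), with mt-Nd1 at chrM:2751-3707, mt-Nd2 at chrM:3914-4951, mt-Co1 at chrM:5328-6872, mt-Co2 at chrM:7013-7696, mt-Atp6 at chrM:7927-8607, mt-Co3 at chrM:8607-9390, mt-Nd4 at chrM:10167-11544, mt-Nd5 at chrM:11742-13565 and mt-Cytb at chrM:14145-15288. Each is a single exon. A stretch of nuclear DNA on the minus strand of chromosome 1, chr1:24611535-24616197, carries annotated pseudogenes that copy the genome from the end of mt-Co1 to mt-Nd4. All 3 uncounted members had a near-identical copy in that stretch. Gm28661 matched mt-Co2 at 100% over 681 of 684 bases, Gm10925 matched mt-Atp6 at 100% over 678 of 681 bases and Gm28437 matched mt-Co3 at 100% over 783 of 784 bases. The last 60 aligned bases, at the 3′ end of the match, are printed once for gene and copy, because they did not differ. Positions count from 1 at the first base of the mitochondrial gene.
mt-Co2 and Gm28661, positions 622 to 681: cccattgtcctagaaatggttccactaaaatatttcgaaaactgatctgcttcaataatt
mt-Atp6 and Gm10925, positions 619 to 678: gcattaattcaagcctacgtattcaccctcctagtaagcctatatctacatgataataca
mt-Co3 and Gm28437, positions 724 to 783: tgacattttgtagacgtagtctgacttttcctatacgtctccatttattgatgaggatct

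The copies themselves were hardly counted either, with 15 UMIs for Gm28661, 22 for Gm10925 and 32 for Gm28437 over all tables. Outside the members, mt-Nd3 and mt-Nd4l had 1 UMI each, and their copies Gm28438 and Gm10222 matched at 99.71% and 100%. How reads that match several places were handled is not given in the sources used here, and the part of the copies in these low counts was not tested. mt-Atp8, which overlaps mt-Atp6 and encodes another small subunit of ATP synthase, also had 1 UMI. The search returned no nuclear transcript for mt-Atp8 itself. The end of mt-Atp8 that it shares with the start of mt-Atp6 lies in the stretch that Gm10925 matched at 100%.

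Among the counted members, mt-Co1 and mt-Nd4 were copied in part. Gm29216 matched the last 483 bases of mt-Co1 (positions 1063 to 1545) with 1 difference, A1066T, which lies 479 bases from the 3′ end. The window that holds the difference is printed for both, with the differing base in capitals.
mt-Co1, positions 1063 to 1096: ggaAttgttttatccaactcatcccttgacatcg
Gm29216, the aligned window: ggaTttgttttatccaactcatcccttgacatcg
The last 60 bases of mt-Co1 and Gm29216 were identical, so a tag from that end cannot be assigned by its sequence alone. They are shown with the end of mt-Nd1, which had no nuclear match of at least 90% identity.
mt-Co1, positions 1486 to 1545: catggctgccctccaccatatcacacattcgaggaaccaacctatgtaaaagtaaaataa
mt-Nd1, last 60 bases: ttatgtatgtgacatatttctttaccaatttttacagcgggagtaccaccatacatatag
A second copy, Gm13340, matched all of mt-Co1 at 97.6%. Gm28439 matched the first 876 bases of mt-Nd4 at 100% and left the last 502 bases outside the copy. mt-Cytb, mt-Nd2 and mt-Nd5 had copies of at most 96.7% identity. In the order of the genome, the tables held 62962 UMIs of mt-Nd1, 45453 of mt-Nd2, 14684 of mt-Co1, 31338 of mt-Nd4, 49288 of mt-Nd5 and 81216 of mt-Cytb. Gm29216 had 53 UMIs. The mt-Co1 count may thus include only some of its tags. Its level, and its share of the UMIs of the counted genes, are compared below between cells and libraries. Whether the part of its tags that was counted is the same in every library was not tested.

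**Figure D1:**
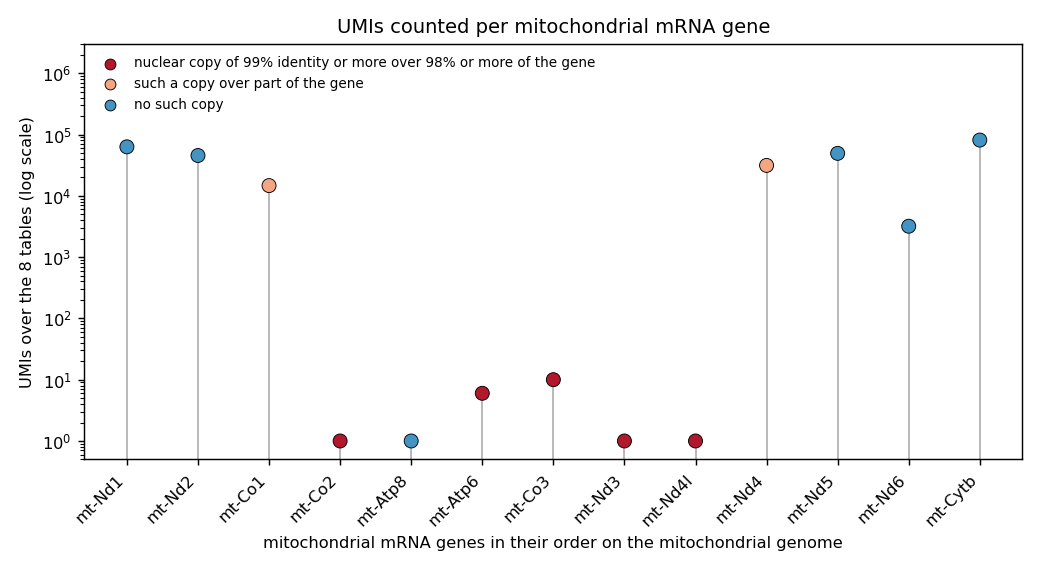
UMIs summed over the 8 tables (log axis) for the 13 mitochondrial mRNA genes in genome order, coloured by whether a nuclear transcript of at least 99% identity covers at least 98% of the gene, part of it or none of it. mt-Atp8 is coloured as having none, since the search returned no match for it. The 5 genes with such a copy over nearly their whole length had between 1 and 10 UMIs, while mt-Co1 and mt-Nd4, copied in part, had 14684 and 31338.

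The summed level of the 6 counted genes, in UMIs per 1000000 of all UMIs of the class (CPM), differed several-fold between classes. Macrophage-like cells (6 libraries, 446 cells) had the lowest level of the classes with more than 2 libraries, with a median of 3586 CPM and a range of 3236 to 4023 CPM. Tumour cells (6 libraries, 3396 cells) had a median of 3720 CPM and a range of 3331 to 4730 CPM, which overlapped that of macrophage-like cells. Lymphocytes followed at a median of 5345 CPM (4845 to 5788 CPM, 5 libraries) and lay above every macrophage-like and tumour cell sum. Microglia-like cells had a median of 5834 CPM (4723 to 8019 CPM, 8 libraries) and oligodendrocyte precursor cells (OPCs) 7595 CPM (4763 to 9366 CPM, 6 libraries), and both ranges took in the whole lymphocyte range.

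Endothelial cells had a median of 8203 CPM (5468 to 10920 CPM, 7 libraries) and oligodendrocytes 8389 CPM (6054 to 14250 CPM, 8 libraries), so neither differed beyond its spread from the other. Astrocytes had a median of 13790 CPM (4652 to 15080 CPM, 7 libraries), the widest fold range among the 4 resident classes that were followed from naive to tumour-bearing brain. Choroid plexus-like cells reached 18790 CPM (6524 to 21120 CPM, 3 libraries) and neuron-like cells 21400 CPM (10450 to 36080 CPM, 5 libraries), the highest median of all, though on only 31 cells. Ciliated ependymal-like, neuroblast-like and mural-like cells fell between, with medians of 9109, 8289 and 11550 CPM over 3, 3 and 4 libraries, and dendritic-like cells had 2145 and 2578 CPM in 2 libraries of few cells. These medians pool naive and tumour-bearing libraries in shares that differ by class. In tumour-bearing libraries alone, neuron-like cells (13080 CPM) and astrocytes (12200 CPM) had the highest medians, whereas choroid plexus-like cells had 6524 CPM in 1 library, below oligodendrocytes (7616 CPM), OPCs (7595 CPM) and endothelial cells (7052 CPM).

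**Figure D2:**
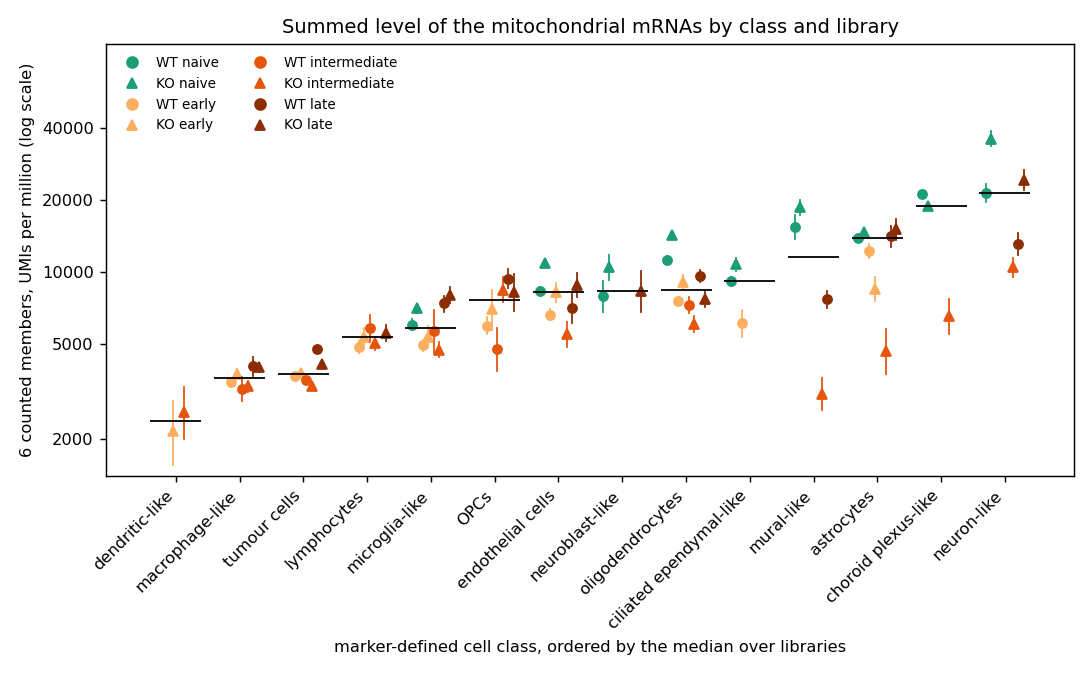
Summed level of the 6 counted mitochondrial mRNAs in CPM (log axis) for each class and library with at least 5 cells, with exact Poisson 95% intervals that cover counting error only and a line at each class median. Macrophage-like and tumour cells sit between 3236 and 4730 CPM, and astrocytes, choroid plexus-like and neuron-like cells have the 3 highest medians over naive and tumour-bearing libraries together.

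Over the 40 sums of class and library with at least 20 cells, the log2 level of each counted gene followed the log2 summed level to which it contributes, with Pearson r between 0.88 (mt-Co1) and 0.96 (mt-Cytb). mt-Nd6, the single mRNA of the light strand, had r = 0.54, mt-Rnr1, the small rRNA, 0.55 and mt-Rnr2, the large rRNA, 0.29. Among 2052 genes outside the mitochondrial genome with a mean of at least 100 CPM, the patterns most like it were those of Hist1h2bc (r = 0.86), a histone gene, Rabac1 (0.81), which acts in vesicle transport, Tmem59 (0.79), Acbd5 (0.78), which tethers peroxisomes to the endoplasmic reticulum, and Higd2a (0.76), an assembly factor of complex IV. The 40 sums share libraries, depth and cell classes and are not independent, so these values describe the likeness only.

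The rRNA levels differed between libraries. The median of mt-Rnr2 over classes of at least 20 cells was 57910 CPM in WT early, 48080 in WT naive, 35320 in KO intermediate, 28110 in KO naive, 26330 in WT intermediate, 15230 in WT late, 13100 in KO late and 12710 in KO early. Per UMI of the 6 mRNAs, the median was 10.95 mt-Rnr2 UMIs in WT early and 2.283 in WT late. The 2 early libraries were the highest and the lowest, both naive libraries were among the 4 highest and both late libraries among the 3 lowest. The names of the sequenced libraries form 2 numbered series. WT early, WT naive, KO intermediate and KO naive, the 4 highest, make up the later series, and the other libraries the earlier. What the series stand for is not given, and their part in these levels was not tested.

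In astrocytes, mt-Co1, the catalytic subunit of complex IV, had 1045 CPM in the WT naive and 1088 CPM in the KO naive library. In tumour-bearing libraries it had 724.2 (WT early), 266.5 (KO early), 105.7 (KO intermediate), 396.4 (WT late) and 291.6 CPM (KO late), so the groups did not overlap. The fitted log2 fold change (edgeR, genotype as a covariate) was -1.59 ± 0.35 (SE, 2 against 5 libraries). mt-Nd5 had a log2 fold change of -0.88 ± 0.30 with separate groups, and the other 4 genes lay between -0.45 and -0.15, with overlapping groups. The summed level was 13790 and 14620 CPM in naive and from 4652 to 15080 CPM in tumour-bearing astrocytes. The 2 late libraries were thus as high in the sum as the naive ones while their mt-Co1 was lower.

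In oligodendrocytes, mt-Co1 had 1029 CPM (WT naive) and 1324 CPM (KO naive), against 443.7 (WT early), 363.6 (KO early), 365.6 (WT intermediate), 166.5 (KO intermediate), 359.9 (WT late) and 149.8 CPM (KO late) near tumours. All 6 tumour-bearing values lay below both naive ones. mt-Nd5 had 1620 and 1813 CPM in naive and between 529 and 1086 CPM in tumour-bearing oligodendrocytes, also without overlap. The groups were separate too for mt-Cytb (3331 and 4020 against 1793 to 3295 CPM) and mt-Nd2 (1578 and 1736 against 881.7 to 1209 CPM). They overlapped for mt-Nd1 and mt-Nd4. Log2 fold changes were -1.97 ± 0.28 for mt-Co1 and -1.02 ± 0.22 for mt-Nd5 (SE, 2 against 6 libraries) and -0.69 to -0.33 for the other 4 genes. The summed level was 11240 and 14250 CPM in naive and 6054 to 9616 CPM in tumour-bearing libraries.

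In microglia-like cells, mt-Co1 had 441.1 CPM (WT naive) and 422.7 CPM (KO naive). Near tumours it had 274.7 (WT early), 113 (KO early), 141.7 (KO intermediate), 190 (WT late) and 316.2 CPM (KO late), and 0 UMIs in the 5 cells of the WT intermediate library, for which the exact Poisson 95% interval reaches 212.9 CPM. The 2 groups did not overlap, with a log2 fold change of -1.08 ± 0.40 (SE, 2 against 6 libraries). The other 5 genes lay between -0.29 and 0.07 and overlapped in every case. The summed level was 6012 and 7029 CPM in naive and between 4723 and 8019 CPM in tumour-bearing libraries.

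The contrast in these 3 glial classes is the one that the genes were chosen from, so its counts of calls by edgeR are no evidence about them and are given once, beside the share of all genes, for completeness. How many of all genes had naive and tumour-bearing values without overlap was not counted, in these classes or in endothelial cells. Separate groups are therefore a description only. At an adjusted p under 0.05 there were 1 of 6 genes lower in astrocytes (0.813% of all genes tested), 2 in oligodendrocytes (0.711%) and 0 in microglia-like cells (7.01%, with 1 of the 6 at an unadjusted p under 0.05 and 0 by DESeq2). Leaving out 1 library changed the count to 0 in astrocytes (KO naive or KO early) and oligodendrocytes (KO naive), to 2 in astrocytes (KO late) and to 1 in microglia-like cells (WT early or KO late).

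Nuclear genes of the same complexes were counted beside them. Of 75 listed nuclear subunits of complexes I to IV and ATP synthase, 38 could be tested in astrocytes and 69 in oligodendrocytes, and edgeR called 0 in either class, where 1.79% and 2.28% of all genes were called, with 0 and 2 subunits at an unadjusted p under 0.05. In microglia-like cells 5 of 68 tested subunits were called higher near tumours and 0 lower, a smaller share than the 9.43% of all genes called higher. They were Cox5a (log2 fold change 1.78 ± 0.38, complex IV), Atp5e (1.23 ± 0.34, ATP synthase), Ndufa1 (1.21 ± 0.35, complex I), Cox6a1 (1.20 ± 0.34, complex IV) and Uqcr10 (1.16 ± 0.37, complex III). These calls come from the same libraries that the choice of genes used and are given as a description.

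Endothelial cells were not part of the choice of genes, although they came from the same libraries. A shift shared by all cells of a library would enter both the glial and the endothelial contrast. The test below is therefore not independent of the choice of genes. mt-Co1 had 639.3 CPM (WT naive) and 812.3 CPM (KO naive), against 334.3 (WT early), 421.2 (KO early), 172.1 (KO intermediate), 239.6 (WT late) and 167.5 CPM (KO late). All 5 tumour-bearing sums lay below both naive ones, and mt-Co1 was lower by a log2 fold change of -1.39 ± 0.31 (SE) with an adjusted p of 0.0098 by edgeR's quasi-likelihood test. It was the only one of the 6 genes called, where 0.555% of all genes tested were called lower. mt-Nd5 had a log2 fold change of -0.83 ± 0.32 with an adjusted p of 0.173, and the other 4 genes lay between -0.39 and -0.26. The mt-Co1 call was lost when the KO naive, the KO intermediate or the KO late library was left out, with 0 genes called in each case, and had an adjusted p of 0.0615 when cells were thinned to 1000 UMIs. Dissociation stress genes (15 immediate early and heat shock genes) moved with the same contrast, with 15 of 15 called higher, where 4.16% of all genes tested were. They summed to 14260 to 32610 CPM in tumour-bearing against 2986 and 4111 CPM in naive endothelial cells, and their part in the mt-Co1 result was not tested. Haemoglobin transcripts, a sign of adhering red blood cells, reached 44740 CPM in the WT late endothelial sum and at most 6087 CPM in the others.

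The log2 fold changes of glia are set beside those of endothelial cells of the same libraries as a description, since the glial values were used in the choice of genes. For astrocytes minus endothelial cells the differences of the 6 genes ran from 0.01 to 0.25, for oligodendrocytes minus endothelial cells from -0.42 to 0.03 and for microglia-like minus endothelial cells from 0.25 to 0.71. The mt-Co1 differences were 0.05 ± 0.44, -0.42 ± 0.37 and 0.55 ± 0.40 (SE).

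**Figure D3:**
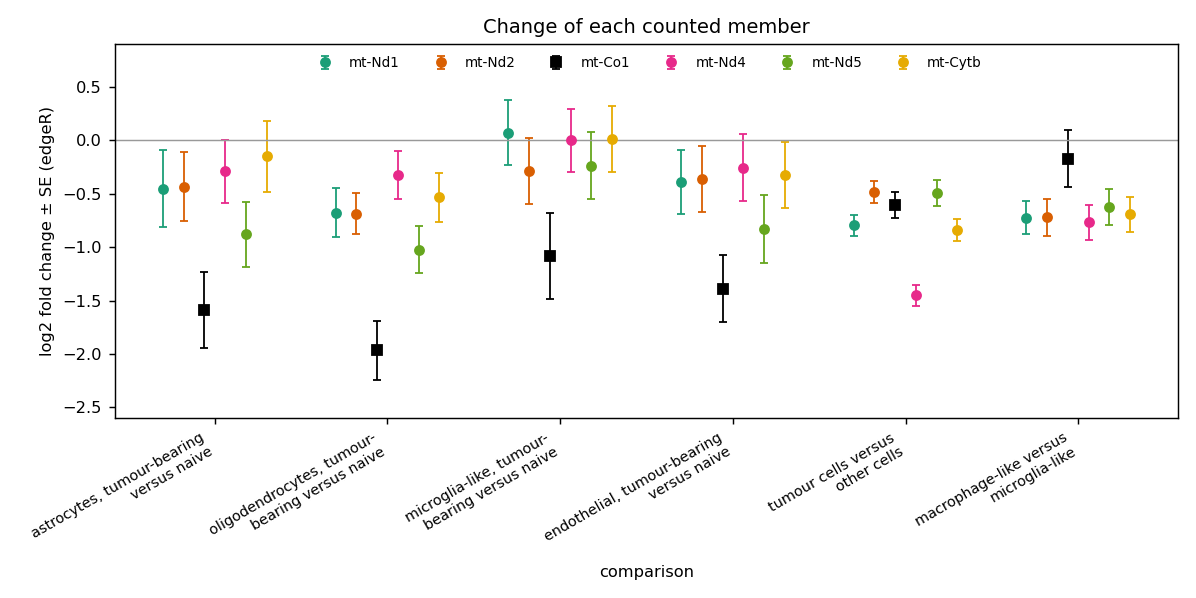
Log2 fold change ± SE (edgeR) of each counted member in 6 comparisons, 4 of tumour-bearing with naive cells and 2 within tumour-bearing libraries. mt-Co1 (black squares) has the lowest value in all 4 comparisons with naive cells, from -1.97 to -1.08, and not in the other 2.

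The share of mt-Co1 within the UMIs of the 6 genes is a ratio that the total amount of mitochondrial RNA in a cell does not move. Over classes of at least 20 cells, mt-Co1 made up 5.36% to 9.29% of the 6 genes' UMIs in naive libraries (11 sums, median 7.44%) and 1.94% to 6.68% in tumour-bearing libraries (29 sums, median 4.02%). In oligodendrocytes the share was 9.16% and 9.29% in the naive libraries and 1.94% to 5.91% in the tumour-bearing ones. In the other 3 classes the tumour-bearing ranges also take in sums of 5 to 19 cells. In astrocytes the share was 7.44% and 7.58% against 1.93% to 5.94%, in endothelial cells 7.44% and 7.66% against 1.90% to 5.13% and in microglia-like cells 6.01% and 7.34% against 0 (5 cells of WT intermediate) to 5.57%.

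The share was also lower in barcodes that were not kept as cells. Over all 3000 barcodes of a library the mt-Co1 share was 7.71% (WT naive), 7.23% (KO naive), 5.19% (WT early), 5.15% (KO early), 3.76% (WT intermediate), 3.58% (KO intermediate), 3.37% (WT late) and 3.69% (KO late). Both early libraries were thus above all 4 later ones and below both naive ones. Among the 2000 barcodes with the fewest UMIs, at a median of 359 UMIs in KO naive, the shares were 8.36% and 7.15% in the naive and 3.18% to 4.77% in the tumour-bearing libraries. Tumour cells and macrophage-like cells, which naive brain did not hold, had shares of 3.49% to 5.64% and 2.92% to 6.68%. The lower share was thus found across classes and in barcodes of few UMIs, and with 1 library for each condition the library and the brain it came from cannot be told apart.

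**Figure D4:**
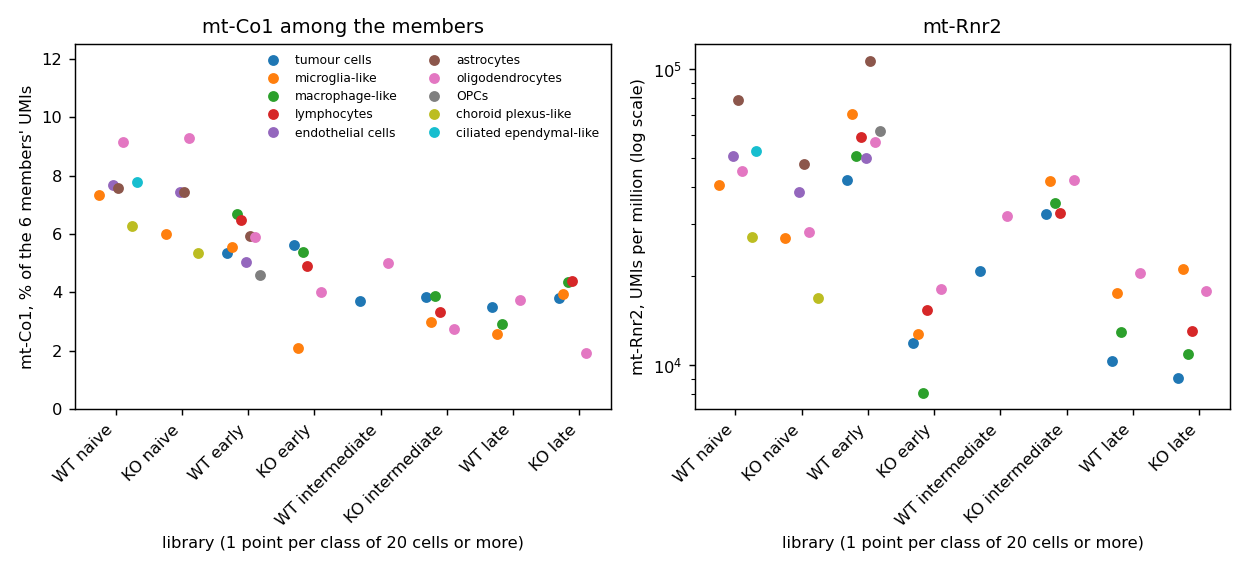
Left, mt-Co1 as a percentage of the UMIs of the 6 counted members, and right, mt-Rnr2 in CPM (log axis), with 1 point for each class of at least 20 cells in each library. The mt-Co1 share is 5.36% or more in every naive sum and 6.68% or less in every tumour-bearing sum, and mt-Rnr2 varies between libraries by a different order.

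Depth and other quality measures also differed between tumour-bearing and naive glia. Median UMIs per cell were 2544 and 2838 in naive and 2047 to 2529 in tumour-bearing astrocytes of 5 cells or more, 2928 and 3114 against 2465 to 3159 in oligodendrocytes and 2261 and 2330 against 2266 to 3770 in microglia-like cells. Naive and tumour-bearing astrocytes thus did not overlap in this measure. Among cells of 2000 to 4000 UMIs, pooled mt-Co1 levels were 1080 CPM in naive and 499.5 CPM in tumour-bearing astrocytes, 1211 and 342.9 CPM in oligodendrocytes, 426.6 and 162.3 CPM in microglia-like cells and 726.1 and 252.9 CPM in endothelial cells. Among cells of 4000 to 8000 UMIs they were 1164 and 365.2 CPM in oligodendrocytes, 640.3 and 373.3 CPM in endothelial cells and 360.9 CPM (5 cells) and 253.3 CPM in microglia-like cells, whose tumour-bearing libraries reached 373.5 CPM and overlapped the naive value. These bands match total UMIs only.

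Dissociation stress genes (15 genes) summed to 1499 and 848 CPM in naive and 1634 to 5419 CPM in tumour-bearing oligodendrocytes, without overlap, with a median log2 fold change of 1.41 over the 8 that could be tested. In astrocytes they summed to 570.6 and 540.9 CPM in naive and 568 to 4082 CPM in tumour-bearing libraries, and in microglia-like cells to 17030 and 18980 against 10510 to 18700 CPM, overlapping in both classes. Ribosomal protein genes took 1.67% and 1.99% of UMIs in naive and 2.89% to 3.98% in tumour-bearing microglia-like cells, without overlap. Nuclear-retained RNAs (3 transcripts), whose share can rise in damaged cells, summed to 34840 and 26870 CPM in naive astrocytes and 21160 to 39810 CPM in tumour-bearing astrocytes of 5 cells or more, and the ranges overlapped in oligodendrocytes too. In microglia-like cells they summed to 23650 and 14320 CPM in naive against 5677 to 13500 CPM in tumour-bearing libraries. Tumour cell markers (7 genes) reached higher sums near tumours, at 13.27 and 24.04 CPM in naive against 14.2 to 540.5 CPM in tumour-bearing astrocytes and 3.785 and 22.43 against 45.07 to 602.1 CPM in oligodendrocytes, where the tumour cells themselves had 2672 to 6248 CPM. In microglia-like cells macrophage markers (9 genes) summed to 758.3 and 503.1 CPM in naive and 2011 to 5662 CPM in tumour-bearing libraries. The part of these measures in the mt-Co1 difference was not tested.

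Within the 6 tumour-bearing libraries, tumour cells were compared with all other cells of the same library, a contrast that played no role in the choice of genes. All 6 counted genes were lower in tumour cells, where 34.2% of all genes tested were called lower and 29.9% higher. mt-Nd4, a complex I subunit, differed most, with a log2 fold change of -1.45 ± 0.10 (adjusted p = 3.1e-07, edgeR), and had between 267.4 and 426.6 CPM in the tumour cells of the 6 libraries. Log2 fold changes were -0.84 ± 0.10 for mt-Cytb, -0.80 ± 0.10 for mt-Nd1, -0.61 ± 0.12 for mt-Co1, -0.49 ± 0.12 for mt-Nd5 and -0.48 ± 0.10 for mt-Nd2, and the largest adjusted p was 0.0041. In tumour cells mt-Cytb ranged from 866.9 to 1482 CPM, mt-Nd1 from 794.6 to 1073 CPM, mt-Nd5 from 568.2 to 800.6 CPM, mt-Nd2 from 579.7 to 783.2 CPM and mt-Co1 from 128.2 to 212.9 CPM. Both rRNAs were also lower, with log2 fold changes of -1.33 ± 0.11 for mt-Rnr1 and -0.53 ± 0.11 for mt-Rnr2.

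Nuclear respiratory-chain genes did not share that direction. Of 75 subunits, 28 were higher and 9 lower in tumour cells, with a median log2 fold change of 0.15 against -0.003 for all genes. Complex I had 14 of 36 higher and 3 lower, with Ndufb9 (0.87 ± 0.10), Ndufab1 (0.87 ± 0.11) and Ndufa6 (0.81 ± 0.11) the largest. Complex III held changes both ways, with Uqcrq (1.20 ± 0.10) and Cyc1 (0.90 ± 0.11) higher and Uqcrb (-1.33 ± 0.11) lower. In complex IV 4 of 11 were higher, led by Ndufa4 (0.64 ± 0.11), and in ATP synthase 4 of 15 were higher, led by Atp5g2 (1.44 ± 0.24), and 1 lower. Complex II, which has no mitochondrially encoded subunit, had Sdhd higher (0.37 ± 0.13) and Sdha lower (-1.53 ± 0.14). The 28 higher calls of 75 stand against 29.9% of all genes called higher.

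Of the 13 genes listed for maintaining and expressing mitochondrial DNA, 7 were higher in tumour cells and 0 lower, with a median log2 fold change of 0.63. Of all genes tested, 29.9% were called higher and 34.2% lower. Twnk, the mitochondrial DNA helicase, had 1.94 ± 0.23, Tfam, which packages mitochondrial DNA and starts its transcription, 1.56 ± 0.14 and Pnpt1, a mitochondrial RNA nuclease, 1.46 ± 0.13. Of 5 regulators of mitochondrial biogenesis, Gabpa was higher (0.79 ± 0.15), while Ppargc1a (-2.71 ± 0.55), a coactivator that drives biogenesis, and Esrra (-0.84 ± 0.19) were lower. Dissociation stress genes (13 of 15) and all 3 nuclear-retained RNAs were lower in tumour cells, beside 34.2% of all genes tested. Their part in the lower mitochondrial mRNA levels was not tested. The other cells differed in make-up between libraries, and tumour cell levels overlapped those of macrophage-like cells, as given above.

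Macrophage-like cells were compared with microglia-like cells of the same 6 tumour-bearing libraries. The summed level was lower in macrophage-like cells in 6 of 6 libraries, at 3448 against 4934 CPM in WT early, 3724 against 5352 in KO early, 3236 against 5655 in WT intermediate, 3315 against 4723 in KO intermediate, 4023 against 7366 in WT late and 3973 against 8019 in KO late. The 2 sets of values did not overlap. By edgeR 5 of the 6 genes were lower in macrophage-like cells, where 13% of all genes were called lower and 14.1% higher. Log2 fold changes were -0.77 ± 0.16 for mt-Nd4 (adjusted p = 0.0011), -0.73 ± 0.16 for mt-Nd1 (0.0015), -0.72 ± 0.17 for mt-Nd2 (0.0032), -0.69 ± 0.16 for mt-Cytb (0.0035) and -0.62 ± 0.17 for mt-Nd5 (0.0095). mt-Co1 was not called, at -0.17 ± 0.27 (adjusted p = 0.67), and was lower in 4 of 6 libraries.

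mt-Nd4 illustrates the per-library values, with 411, 510.8, 468.8, 413.4, 478.1 and 531.6 CPM in macrophage-like cells and 635, 790.8, 923.3, 627.5, 1062 and 948.6 CPM in microglia-like cells of WT early, KO early, WT intermediate, KO intermediate, WT late and KO late. Every macrophage-like value lay below every microglia-like value. mt-Rnr2 was lower as well (-0.51 ± 0.15, adjusted p = 0.015 by edgeR), whereas mt-Rnr1 was not called (-0.28 ± 0.22). DESeq2 called 5 members as well. Without the filter on low counts 0 members were called by edgeR, and without the WT late library mt-Nd5 had an adjusted p of 0.103.

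Nuclear subunits of the same complexes were called mostly in the opposite direction. Of 69 tested, 30 were higher in macrophage-like cells and 1 was lower, with a median log2 fold change of 0.55 against 0.05 for all genes, where 14.1% of all genes were higher. ATP synthase had 10 of 13 higher, with Atp5g3 (1.22 ± 0.20), Atp5k (0.94 ± 0.22) and Atp5o (0.84 ± 0.23) the largest. Complex IV had 7 of 11 higher, led by Cox5a (1.23 ± 0.21), Cox7a2 (1.06 ± 0.23) and Cox5b (0.89 ± 0.22). Ndufa4 (-0.81 ± 0.20), an accessory subunit of complex IV, was the 1 subunit that was lower, and is named here after its value was seen. Complex I had 9 of 32 higher, led by Ndufb6 (1.23 ± 0.25), Ndufc1 (0.92 ± 0.21) and Ndufa5 (0.92 ± 0.25), complex III 3 of 9, namely Cyc1 (0.86 ± 0.27), Uqcrb (0.80 ± 0.20) and Uqcrc1 (0.72 ± 0.25), and complex II 1 of 4, Sdhb (0.66 ± 0.19). Summed nuclear subunit levels were 16910 to 24140 CPM in macrophage-like and 11150 to 16200 CPM in microglia-like cells of these libraries. The count of 30 fell to 19 without the KO early library and to 10 when every cell was thinned to 1000 UMIs.

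Quality measures differed between these classes too. Of 15 stress genes 8 were lower in macrophage-like cells, where 13% of all genes were called lower. Egr1 was lower by a log2 fold change of -3.12 ± 0.21, while Fosb and Dusp1 were higher. Median UMIs per cell were 2693.5 to 4143 in macrophage-like and 2266 to 3770 in microglia-like cells, and 0 of 3 nuclear-retained RNAs were called. Microglia-like cells of the WT intermediate library numbered 5, and macrophage markers in microglia-like cells summed to 2011 to 5662 CPM, where macrophage-like cells had 25850 to 32850 CPM. The part of these in the result was not tested.

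**Figure D5:**
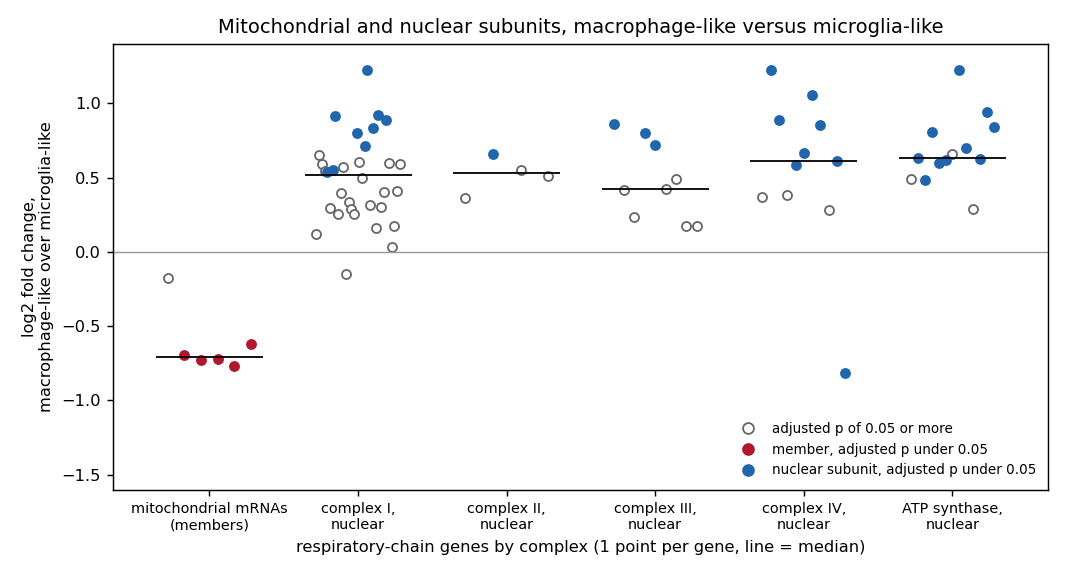
Log2 fold change of macrophage-like over microglia-like cells in the 6 tumour-bearing libraries, with 1 point per gene for the 6 counted mitochondrial mRNAs and the tested nuclear subunits of each complex, filled where the adjusted p was under 0.05 (edgeR), and a line at each median. Mitochondrial mRNAs lie between -0.77 and -0.17, while 30 of 69 nuclear subunits are called higher and 1 lower.

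No member differed between the genotypes in any of 6 classes by edgeR with the condition as a block. In tumour cells 0 of 6 were called and 0% of all genes, with log2 fold changes of KO over WT from -0.17 to 0.04. In microglia-like cells 0 of 6 were called against 0.0306% of all genes (-0.18 to 0.31), in macrophage-like cells against 0.0932% (-0.08 to 0.21), in endothelial cells against 0.113% (0.21 to 0.49), in oligodendrocytes against 0% (-0.40 to 0.20) and in astrocytes against 0.38% (-0.57 to 0.03). DESeq2 called 0 in each class, and the single unadjusted p under 0.05 was that of mt-Nd5 in astrocytes (-0.57 ± 0.27, adjusted p = 0.99). With at most 4 pairs of libraries a difference of the size of the errors was not detectable, and sex differed along with genotype in 2 of these pairs. mt-Rnr1, the small rRNA, was called lower in KO astrocytes (-1.48 ± 0.35, adjusted p = 0.032 by edgeR), in a fit of the naive, early and late pairs. It was also lower, without a call, in the other classes, from -0.92 in macrophage-like to -0.47 in tumour cells. WT early and KO early had the highest and the lowest median mt-Rnr2 of all libraries. The part of library-wide rRNA levels in the mt-Rnr1 call was not tested.

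In tumour cells, late and early libraries were compared with genotype in the model. None of the 6 genes was called by edgeR or DESeq2, 0% of all 14340 genes tested were, and no member had an unadjusted p under 0.05. Log2 fold changes of late over early ran from -0.40 ± 0.19 (mt-Co1) to 0.32 ± 0.21 (mt-Nd4). mt-Co1 in tumour cells had 195.5 and 212.9 CPM at the early, 131.2 and 128.2 at the intermediate and 165 and 156.2 CPM at the late stage in WT and KO, and at each stage the 2 genotypes lay closer to each other than to any other stage. mt-Nd4 had 294.2 and 312 CPM at the early and 426.6 and 359.7 CPM at the late stage.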

How the data were processed

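Single cells of naive and GL261 tumour-bearing brains were measured by Drop-seq in 8 libraries, 1 per genotype and condition. The authors converted the sequencer output with bcl2fastq 2.0, checked it with FastQC and made tables of UMI counts with the Drop-seq pipeline, in which STAR aligned the reads, per the submitters' processing notes, to GRCm38. The deposited counts are not normalized, and each table lists 3000 barcodes. The STAR version, the annotation and the handling of reads that match several places are not given in the sources used here.

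The study's filters were applied again: per library the top 1000 barcodes by UMI total, genes seen in 30 or more cells, and cells showing 1000 genes or more. Clusters came from tSNE (perplexity 50, Rtsne 0.17) on 50 principal components of log2(CPM + 1) followed by HDBSCAN (scikit-learn 1.9.0; smallest cluster 19 cells), leaving out all genes of the mitochondrial genome. The 233 unassigned cells took the majority cluster of 15 neighbours. Clusters were named from marker lists, so differences from the study's classes can come from the rebuilt names. Doublets were kept. Scrublet (scanpy 1.11.5) called under 0.5% of cells in 5 libraries, so as an alternative the highest-scoring cells were removed there instead.

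UMIs were summed per class and library with at least 5 cells and tested with edgeR 4.0.16 in R 4.3.3 (TMM, filterByExpr, quasi-likelihood, Benjamini-Hochberg adjusted p under 0.05). The covariates were genotype for tumour-bearing versus naive and late versus early, the library for classes within libraries and the condition for KO versus WT. Errors are SE computed from the F statistic. Counts were simulated at a fixed dispersion with 200 of the most abundant genes changed 4-fold. Of the changed genes that passed the filter, 79% to 100% were called in the comparisons of conditions or classes. For differences between classes it was 46% to 52%. Not all 200 passed the filter in every comparison, with 130 tested in tumour-bearing versus naive astrocytes. Intervals of CPM are exact Poisson 95% and cover counting error only. Since each condition is 1 library, p-values measure the spread between libraries that differ in stage or genotype. Alternatives were DESeq2 1.42.0, other scalings, filters, clusterings, depths and leaving out each library. Nuclear copies were found with BLAST 2.17.0+ at 90% identity against GENCODE M21 transcripts (GRCm38), from which the sequences come.

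The members and all gene lists were chosen with earlier results of these data known. Named nuclear genes are up to 3 per list with the largest absolute log2 fold change among those called, plus the 5 genes most like the summed level.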

Additional observations from a re-analysis of the deposited data

Results flagged for a closer look

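In 56 groups of tumour-bearing libraries (1 gene, or the summed level of the members, in 1 class), Dixon's test at the 95% level singled out 3 library values, where chance gives about 1 in 20. In endothelial cells, mt-Nd2 had 1759 CPM in the KO late library, while the other 4 tumour-bearing libraries had 890.1 to 1121 CPM. In oligodendrocytes, mt-Nd4 had 793.5 CPM in the KO intermediate library, below the 1194 to 1389 CPM of the other 5. In macrophage-like cells, mt-Nd5 had 728.2 CPM in the WT early library, above the 529.7 to 590.9 CPM of the other 5.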

How the results depend on the processing

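Counts of calls in glia, the contrast that the genes were chosen from, are a description. The number of members called lower in tumour-bearing astrocytes was 1 and became 2 without the filter on low counts, 0 in cells of 1500 to 4000 UMIs, 0 in cells thinned to 1000 UMIs, 0 with no genotype covariate and 0 to 2 when 1 library was left out. In oligodendrocytes it was 2 and became 0 to 2 with 1 library left out. In microglia-like cells it was 0 and became 1 with a minimum of 500 genes per cell, 1 in cells of 1500 to 4000 UMIs, 1 in thinned cells and 0 to 1 with 1 library left out. In endothelial cells it was 1, or 0 to 1 with 1 library left out. Of the members lower in macrophage-like than microglia-like cells, 5 became 0 without the filter, and 4 to 5 with 1 library left out. The nuclear subunits higher in that comparison numbered 30, then 10 in thinned cells and 19 to 32 with 1 library left out. The 1 lower subunit became 0 without the filter and 0 in cells of 1500 to 4000 UMIs. mt-Co1 in that comparison changed from -0.17 to 0.0752 without the filter, 0.0235 with 500 genes per cell and 0.0525 in cells of 1500 to 4000 UMIs, none called. The ratio of the summed level in tumour-bearing over naive oligodendrocytes was 0.618, and 0.787 with all genes of the mitochondrial genome. The cause of these shifts was not tested.

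Over 20 results for single members and 406 alternatives, 377 kept their direction and side of the threshold, 18 lost the call, 8 gained it and 3 changed sign. For tumour-bearing versus naive cells these 20 take in only mt-Co1 and mt-Nd5. There mt-Nd1, mt-Nd2, mt-Nd4 and mt-Cytb together changed sign in 31 of 344 alternatives. After such a change the log2 fold change was at most 0.39 in size and 0 were called. All 6 members stayed lower in tumour cells under every alternative run, except that mt-Nd5 had an adjusted p of 0.0515 in cells of 1500 to 4000 UMIs. No analysis of conditions paired by mouse was possible, because each condition is 1 library. The blocks used were the condition for KO versus WT and the library for classes within libraries. With 1 library per condition and 5 to 23 cells in many sums near tumours, differences of the size of the SE were not detectable. Nuclear copies may lower the mt-Co1 count by an amount the tables do not show.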

Other observations

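Gm28438 on chromosome 1, the nuclear copy of mt-Nd3, which encodes a complex I subunit, was the one copy with more than 100 UMIs, at 1402 over the 8 tables, while mt-Nd3 itself had 1. The pair differ by T3C, which lies 345 bases from the 3′ end. Their last 60 aligned bases were identical, so a tag from those cannot be assigned by its sequence alone. The window that holds the difference is printed with the differing base in capitals, and positions count from 1 at the first base of mt-Nd3.
mt-Nd3, positions 1 to 33: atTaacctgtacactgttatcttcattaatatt
Gm28438, the aligned window: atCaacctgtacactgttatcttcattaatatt
Over all barcodes Gm28438 had 99.44 CPM in WT naive and 159.4 CPM in KO naive, and between 6.921 and 26.39 CPM in the 6 tumour-bearing libraries. In oligodendrocytes it had 106 and 184 CPM in the naive libraries and 10.75 to 68.18 CPM in the tumour-bearing ones, on 1 to 14 UMIs each. It was chosen after its values were seen and carries no test.

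Within classes of at least 20 cells in 1 library, the members' share of a cell's UMIs had Spearman correlations with the cell's total UMIs from -0.38 to 0.48 over 40 sums, with a median of 0.04.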
